A study of Saccharomyces cerevisiae with 2 samples.

Results

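The genes described here encode the proteins of small nucleolar ribonucleoproteins (snoRNPs) and the factors of the small subunit processome in the budding yeast *Saccharomyces cerevisiae*. The rule takes 44 genes by name and function and uses no measured value, although the list was drawn up with earlier results of these data known. Of the 44, 43 were among the 6207 open reading frames (ORFs) of the array table, and all 44 matched a RefSeq gene symbol. NOP10 (YHR072W-A) was not analysed here. In 25 genes a ratio was given in both replicates, in 8 it was given in replicate 1 alone, and 10 were blank in both.

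RNA was measured on 2-colour DNA microarrays, on which caspofungin-treated and untreated cells are labelled with different dyes and compared as a ratio. The treated cells were wsc1 mutants of the BY4741 background, exposed for 2 h to 15 ng/ml caspofungin at 24 °C. The untreated cells came from the same divided culture of the same mutant, so both RNAs of each ratio carried the wsc1 mutation and the marker alleles of BY4741. WSC1 encodes a cell surface sensor of wall stress, and caspofungin blocks synthesis of the wall's glucan. No source used here gives the kind of wsc1 mutation, and no wild-type cells were compared. The caspofungin RNA carried Cy3 in replicate 1 and Cy5 in replicate 2.

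Ribosomes begin in the nucleolus as a long precursor RNA. Box C/D snoRNPs guide methylation of its riboses and box H/ACA snoRNPs guide conversion of its uridines to pseudouridine, each with 4 core proteins. The U3 snoRNP, a box C/D particle, joins with many proteins in the small subunit processome, which folds and cuts the part of the precursor that becomes the RNA of the small subunit. In yeast these genes belong to the ribosome biogenesis regulon, whose RNA levels are known to follow growth rate and to drop in many stresses.

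Values are log2 dye ratios. The dyes were exchanged between replicates, so the sign of replicate 1 was turned to put the caspofungin RNA in the same place in both. This assumes that both columns are the same dye ratio. The order of the dyes in the deposited ratio is not given. With Cy5 on top of the ratio, a negative value means less RNA in the caspofungin cells; with Cy3 on top it means more. Sides are therefore given as negative and positive, without a biological direction. As deposited, the columns were negatively correlated over 3117 ORFs (Pearson r = -0.29), which share both arrays and are not independent. The labels describe 2 cultures, each hybridised with exchanged dyes, as 4 arrays, while 2 columns were analysed here. Whether a column is 1 array or a mean, and whether the columns are separate cultures, is not stated. The SD thus measures only the spread between the columns, which may be technical. The limma p-values rest on that spread too, drawn for each ORF towards its common value over the 3117 ORFs. Precision is limited by the small number of columns. Spot brightness was not used, so the limit that signal sets on it is unknown. The table did not check the strain. BY4741 lacks LEU2, URA3 and MET17, yet LEU2 had ratios of 0.12 in replicate 1 and 0.47 in replicate 2. HIS3, also a marker gene of BY4741, had a value in both replicates too. URA3, MET17 and WSC1 were blank throughout, as were 39.5% of all ORFs.

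The processome and snoRNP genes lay mostly on the negative side by small amounts. The mean of the 2 turned ratios was below 0 in 18 of the 25 genes with both values (72.0%), against 47.9% of the 3117 ORFs. Their median was -0.11, against 0.01 for all ORFs. The median rested largely on replicate 2. It was -0.041 in replicate 1 and -0.27 in replicate 2, where the same medians over all ORFs were 0.036 and -0.043.

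The counts by replicate showed the same imbalance. In replicate 2, 23 of the 25 genes were below 0 (92.0%, against 56.2% of all ORFs), and in replicate 1, 14 were (56.0%, against 44.6%). Both replicates were negative in 14 genes (56.0%, against 32.4% of all ORFs) and both were positive in 2 genes, EMG1 and NOP14 (8%, against 31.6%). The other 9 were above 0 in replicate 1 and below 0 in replicate 2 (36.0%, against 23.7% of all ORFs). When replicate 1 kept its deposited sign, the median was -0.084 and 20 of the 25 genes were negative (80.0%), against a median of -0.001 and 50.2% of all ORFs. The mean changed sign between these settings in 10 of the 25 genes (40.0%, against 47.9% of all ORFs).

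**Figure D1:**
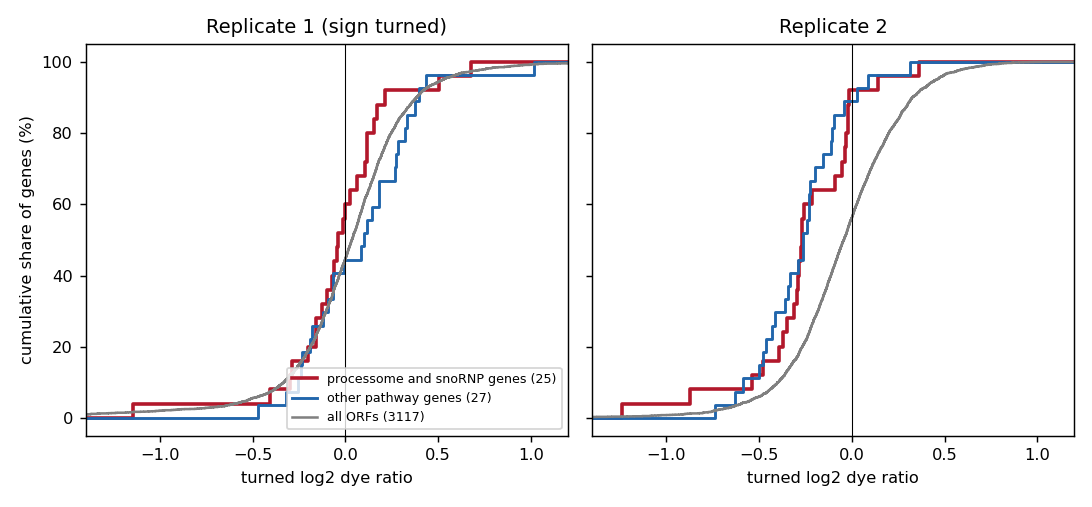
Cumulative share of genes (%) by turned log2 dye ratio in replicate 1 (left) and replicate 2 (right), for the 25 processome and snoRNP genes with both values, 27 other pathway genes and all 3117 ORFs. The 2 pathway curves lie left of all ORFs in replicate 2, where 23 of 25 and 24 of 27 genes are below 0, and near them in replicate 1.

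None of the 25 genes passed the test of single genes. limma called 0 of 25 at an adjusted p of 0.05, and it called 0 of all 3117 ORFs (0%), with 0.366 as the lowest adjusted p. At an unadjusted p of 0.05 it gave 2 of the 25, NOP1 and UTP10, both negative (8%, against 13.4% of all ORFs). A size beyond 1.5-fold, with both replicates on one side, was reached by 1 of the 25, NOP1 (4%, against 4.04% of all ORFs, and 3.30% on the negative side alone). Counting the negative side alone, the share of all ORFs at the unadjusted threshold was 7.76%. The shares of the list were thus near those of all ORFs. The limma 95% interval spanned 0 in 23 of the 25 genes.

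NOP1 (YDL014W) stood apart from the rest of the list. It encodes fibrillarin, the methyltransferase of every box C/D snoRNP, and its turned log2 ratios were -1.14 in replicate 1 and -1.24 in replicate 2. The replicates were thus close together, and NOP1 was 1 of 6 ORFs below -1 in both. Its mean of -1.19 ± 0.07 (SD, n = 2), a size of 2.28-fold, was at place 17 of 3117 from the most negative. The 95% interval was -1.49 to -0.89, with an adjusted p of 0.366 (limma).

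Whether NOP1 passed depended on the centring, and its size on the turning. With both columns centred on their medians NOP1 passed, with an adjusted p of 0.0055 (limma), the only one of the 25 genes to do so (4%, against 1.38% of all ORFs). With medians taken over the ORFs with both values, a setting added after the values were seen, NOP1 again was the only one of the 25 called, against 3.69% of all ORFs. Over the alternatives its adjusted p ran between 9.69e-07 and 0.999, the last with replicate 1 kept as deposited, where its mean was -0.047. Among the ORFs within 3 places of NOP1 in the order of ORF names, several were blank and another was low in replicate 1. YDL016C, 2 places away, had -1.80 in replicate 1 and -0.45 in replicate 2. TSC13, the direct neighbour on that side, had 0.011 and 0.53, and SLX5, on the other side, had -0.13 in replicate 2 alone. No source used here gives the layout of the array, and the part of position in the value of NOP1 was not tested.

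The other core proteins of the box C/D particles were near 0. NOP56 (YLR197W) and NOP58 (YOR310C), related proteins that form its paired scaffold, both had negative values in replicate 2 but differed in replicate 1. NOP56 had -0.045 and -0.30 in replicates 1 and 2, with a mean of -0.17 ± 0.18 (SD, n = 2; adjusted p = 0.543, limma). NOP58 had 0.15 and -0.27, with a mean of -0.057 ± 0.30 (adjusted p = 0.877, limma). SNU13 (YEL026W), which binds the bend in the snoRNA and is also a spliceosome protein, had 0.027 and -0.021. The mean of SNU13 was 0.0029 ± 0.03 (adjusted p = 0.990, limma), the value nearest to 0 among the 25 genes.

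The box H/ACA proteins had lower values in replicate 2 than in replicate 1 as well. NHP2 (YDL208W), a small RNA-binding core protein, had -0.12 in replicate 1 and -0.87 in replicate 2. Its mean of -0.50 ± 0.53 (SD, n = 2; adjusted p = 0.400, limma) was the greatest in size after NOP1, and it came almost wholly from replicate 2. CBF5 (YLR175W), the pseudouridine synthase itself, had 0.00043 and -0.29, with a mean of -0.15 ± 0.21 (adjusted p = 0.614, limma). GAR1 (YHR089C), a glycine- and arginine-rich core protein, had 0.12 and -0.26, with a mean of -0.07 ± 0.27 (adjusted p = 0.834, limma). All 7 measured snoRNP proteins were below 0 in replicate 2, and 3 of the 7 were below 0 in replicate 1.

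**Figure D2:**
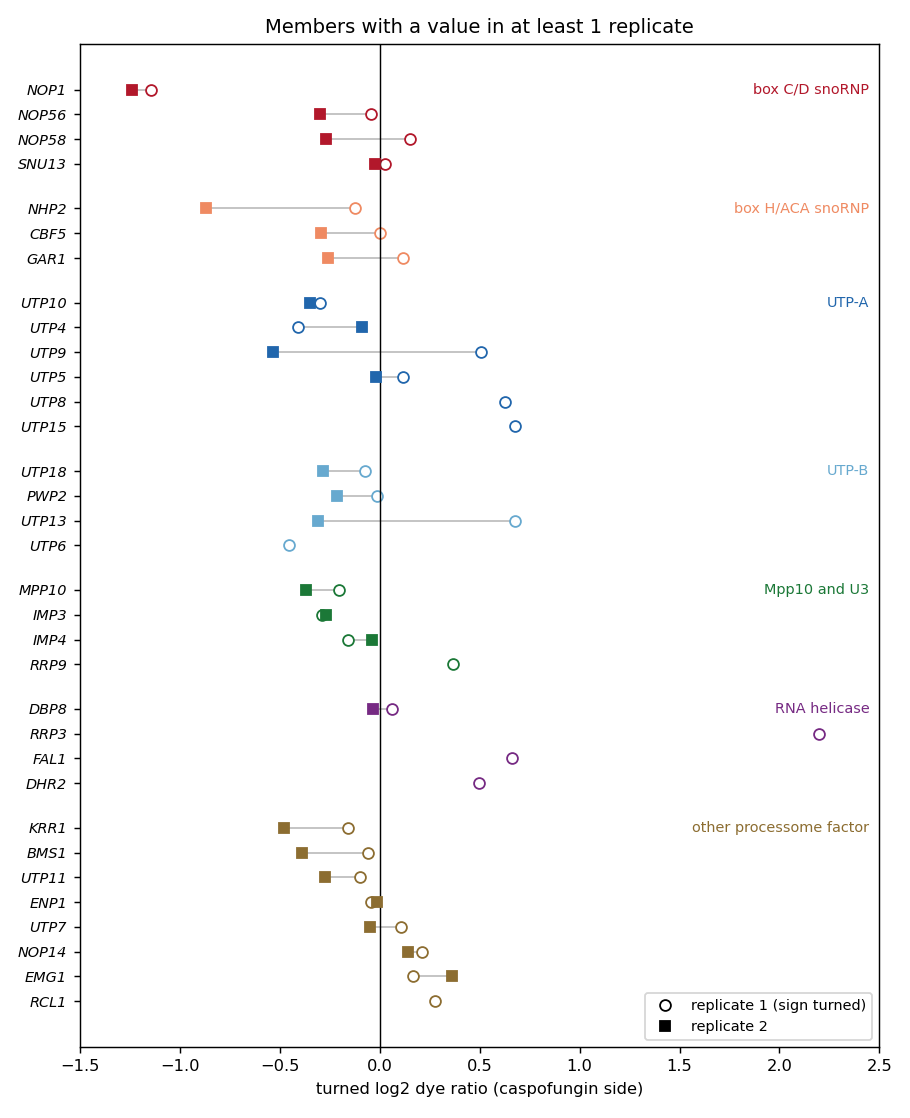
Turned log2 dye ratio of each of the 33 genes with at least 1 value, grouped by role, with replicate 1 as open circles and replicate 2 as filled squares; a grey line joins the 2 values of a gene. NOP1 lies at -1.14 and -1.24, the 8 genes without a square have a value in replicate 1 alone, and RRP3 is the farthest right at 2.20.

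UTP-A is the complex that first binds the new precursor RNA. Of its 7 genes, 4 had both values, with a median of -0.13. UTP10 (YJL109C), a large helical-repeat protein, had -0.30 in replicate 1 and -0.35 in replicate 2, so its replicates were close. Its mean was -0.33 ± 0.04 (SD, n = 2), with a 95% interval of -0.62 to -0.03 and an adjusted p of 0.366 (limma). UTP4 (YDR324C), a WD-repeat protein, had -0.41 and -0.09, and UTP5 (YDR398W) had 0.12 and -0.018. UTP9 (YHR196W) had 0.51 and -0.54, the widest gap between replicates among the 25 genes, and its mean of -0.014 describes neither value. Of the other UTP-A genes, UTP8 (YGR128C) had 0.63 and UTP15 (YMR093W) had 0.68 in replicate 1 alone, and NAN1 (YPL126W) was blank in both.

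UTP-B is a second early complex, made mostly of WD-repeat proteins. Of its 6 genes, 3 had both values, with a median of -0.11. PWP2 (YCR057C) had -0.012 in replicate 1 and -0.21 in replicate 2, and UTP18 (YJL069C) had -0.071 and -0.29, so both genes were negative in both replicates. UTP13 (YLR222C) had 0.68 and -0.31, on opposite sides. UTP6 (YDR449C) had -0.45 in replicate 1 alone, and DIP2 (YLR129W) and UTP21 (YLR409C) were blank in both.

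The Mpp10 complex lay on the negative side in all of its measured genes. MPP10 (YJR002W) and its partners IMP3 (YHR148W) and IMP4 (YNL075W) join the U3 snoRNA to the precursor, and all 3 were negative in both replicates. MPP10 had -0.20 in replicate 1 and -0.37 in replicate 2, with a mean of -0.29 ± 0.12 (SD, n = 2; adjusted p = 0.386, limma). IMP3 had -0.29 and -0.27, and IMP4 had -0.16 and -0.039. The median of the 3 means was -0.28, and it was 0.0097 when replicate 1 kept its deposited sign. RRP9 (YPR137W), the protein specific to the U3 particle, had 0.37 in replicate 1 alone.

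The RNA helicases were the least well measured role group. Of 6 genes, only DBP8 (YHR169W), a DEAD-box helicase, had both values, 0.064 in replicate 1 and -0.034 in replicate 2. In replicate 1 alone, the DEAD-box helicases RRP3 (YHR065C) and FAL1 (YDR021W) had 2.20 and 0.66 and the DEAH-box helicase DHR2 (YKL078W) had 0.50. The value of RRP3, a size of 4.59-fold, was the second most positive of 3705 ORFs in replicate 1, and replicate 2 left it blank. ROK1 (YGL171W) and ECM16 (YMR128W), the helicase that releases U3 from the precursor, were blank in both.

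Among the 13 other processome factors, 7 had both values, with a median of -0.027, and they lay on both sides. That median was -0.078 when replicate 1 kept its deposited sign. KRR1 (YCL059C), an RNA-binding protein, had -0.16 in replicate 1 and -0.48 in replicate 2, with a mean of -0.32 ± 0.23 (SD, n = 2; adjusted p = 0.397, limma). BMS1 (YPL217C), a GTPase, had -0.06 and -0.39, and UTP11 (YKL099C) had -0.10 and -0.27. ENP1 (YBR247C), which stays with the particle on its way to the cytoplasm, had -0.041 and -0.012. These 4 were thus negative in both replicates, by amounts that ran from near 0 to that of KRR1.

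The genes positive in both replicates were EMG1 and NOP14, whose proteins bind each other. EMG1 (YLR186W), a methyltransferase that modifies a pseudouridine of the small subunit RNA, had 0.17 in replicate 1 and 0.36 in replicate 2. Its mean of 0.26 ± 0.14 (SD, n = 2; adjusted p = 0.398, limma) was the most positive of the 25. NOP14 (YDL148C) had 0.21 and 0.14, with a mean of 0.18 ± 0.05 (adjusted p = 0.473, limma). NOC4 (YPR144C), the third protein of that group, was blank in both replicates. UTP7 (YER082C), a WD-repeat protein, had 0.11 and -0.05, on opposite sides. RCL1 (YOL010W), the partner of BMS1, had 0.28 in replicate 1 alone, and UTP14 (YML093W), UTP20 (YBL004W), UTP22 (YGR090W) and SOF1 (YLL011W) were blank in both.

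**Figure D3:**
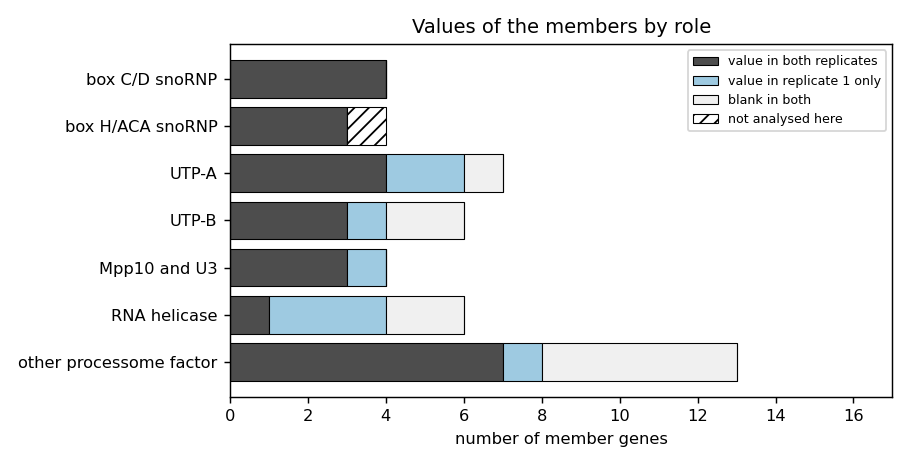
Number of genes in each role group with a value in both replicates, in replicate 1 alone, blank in both, or not analysed here. All 4 box C/D genes have both values, while 1 of 6 RNA helicase genes does.

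The blanks were uneven among the role groups. All 7 snoRNP genes of the table had both values, and 18 of the 36 processome factors did (50.0%, against 50.2% of all ORFs). The share blank in both replicates was 27.8% among processome factors and 39.5% among all ORFs. The 8 genes with a value in replicate 1 alone, UTP8, UTP15, UTP6, RRP9, RRP3, FAL1, DHR2 and RCL1, had a median of 0.56 there, and 7 of them were positive (87.5%). Of all 588 ORFs with a value in replicate 1 alone, 85.7% were positive, with a median of 0.33. The positive side of these 8 genes was therefore near that of any ORF blank in replicate 2 alone, and no test covered them.

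The Pearson correlation of the replicates over the list rested on NOP1, and the rank correlation did so less. Across the 25 genes, which share both arrays, the turned replicates were correlated with r = 0.51 (Pearson) and rho = 0.39 (Spearman). Without NOP1 the values over 24 genes were 0.10 and 0.31, against 0.29 and 0.33 over all 3117 ORFs. Both replicates had the same sign in 16 of the 25 genes (64.0%, against 64.1% of all ORFs). The median SD between replicates was 0.136 in the list and 0.133 over all ORFs. The 24 genes other than NOP1 had means between -0.50 and 0.26 and a median of -0.11.

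**Figure D4:**
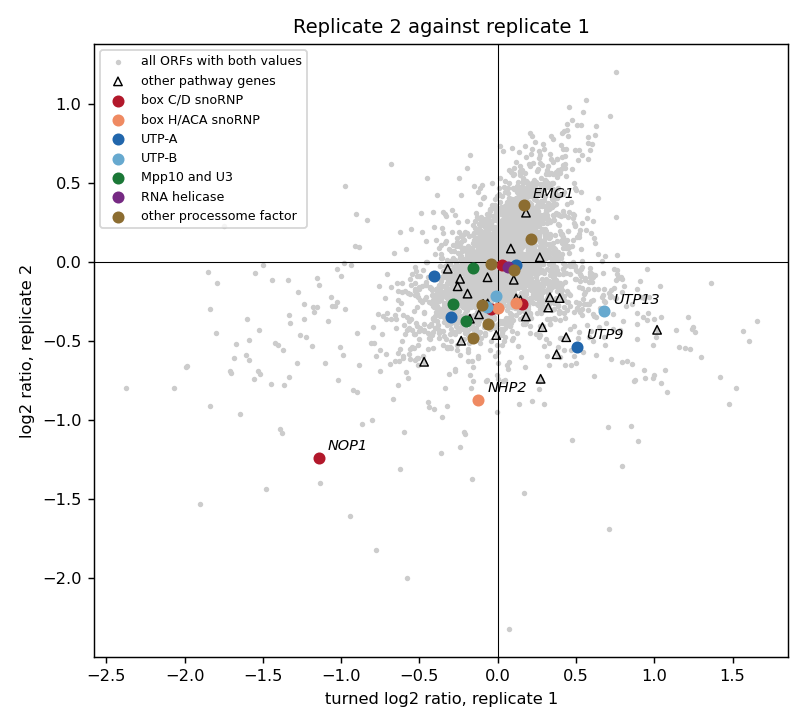
Log2 ratio in replicate 2 against turned log2 ratio in replicate 1 for all 3117 ORFs with both values (grey), 27 other pathway genes (triangles) and the 25 processome and snoRNP genes coloured by role. NOP1 lies low in both replicates, while UTP9 and UTP13 lie to the right and below 0.

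Other genes of the same pathway also lay lower in replicate 2 than in replicate 1. A list of 47 further genes held 37 small subunit assembly factors and 10 factors that assemble snoRNPs, and 27 of the 47 had both values. Of these 27, 24 were below 0 in replicate 2 (88.9%, against 56.2% of all ORFs) and 12 in replicate 1 (44.4%, against 44.6%), with medians of -0.26 and 0.10. The median of their means was -0.082, against 0.01 for all ORFs. Of the 27 means, 20 were negative (74.1%, against 47.9% of all ORFs) and 7 positive. limma called 0 of the 27, and 0 of all 3117 ORFs. At an unadjusted p of 0.05 it gave 2, RRP7 and KRI1, both negative. These were 7.41% of the 27, against 13.4% of all ORFs on either side and 7.76% on the negative side.

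Among these further genes, RRP7, a partner of UTP22, had the most negative mean among those whose replicates were on one side. It had -0.47 in replicate 1 and -0.63 in replicate 2, with a mean of -0.55 ± 0.11 (SD, n = 2; adjusted p = 0.366, limma). KRI1, a partner of KRR1, had -0.23 and -0.50, and BUD21, a processome protein, had -0.18 and -0.36. On the positive side, TAH1, a chaperone cofactor in box C/D assembly, had 0.18 and 0.31. NOP19 had 0.27 and 0.03, and NSR1, the yeast nucleolin, had 0.083 and 0.085. The means were thus small on both sides here too. None of the 27 reached 1.5-fold with both replicates on one side, against 4.04% of all ORFs. The replicates were on opposite sides in 12 of the 27, all above 0 in replicate 1 and below 0 in replicate 2. These were 44.4%, against 23.7% of all ORFs with that order of signs. Single values there could be larger than the mean. MRD1 had 1.02 in replicate 1 and -0.43 in replicate 2, with a mean of 0.29, the most positive of the 27. ESF1 had 0.27 and -0.74, with a mean of -0.23.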

How the data were processed

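Per the labels, total RNA was reverse transcribed with Cy5 or Cy3 and hybridised on 2-colour arrays. The deposited table gives 1 log2 ratio per ORF and replicate, and 2 raised to each value had at most 4 decimals in 100% of values. Background correction, normalization, spot averaging, centring, dye order and the rule for blanks are given in none of the sources used here. Column medians as deposited were -0.073 in replicate 1 and -0.044 in replicate 2, with 40.3% and 49.0% of ORFs blank. Symbols came from the RefSeq gene table, which matched 5654 of 6207 ORFs, and 2 control entries were left out.

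Replicate 1 was multiplied by -1. Each of the 3117 ORFs with both values entered a two-sided limma fit against 0 (lmFit and eBayes, limma 3.58.1, R 4.3.3), with Benjamini-Hochberg adjustment over all 3117 and a threshold of 0.05. The fit was tested on simulated data in which both columns were drawn around the same values. That test therefore does not cover the effect of centring. Each ratio holds both RNAs of a replicate, so the test is itself paired.

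Members and lists were chosen with earlier results of these data known. Every member was named, with full statistics for up to 5 per side by mean, with both replicates on one side, and for all snoRNP proteins. Up to 3 other pathway genes per side were named by the same order. MRD1 and ESF1, with replicates on opposite sides, were named outside that rule for their values. RRP3 was singled out after its value was seen. The sequence comparison of promoters was not run, and no sequences were used here.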

Additional observations from a re-analysis of the deposited data

How the results depend on the processing

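The centring decided the count of calls. As deposited limma called 0 ORFs and 0 of the 25 genes, and these counts stayed at 0 with replicate 1 kept as deposited, the robust prior, the plain one-sample statistic, a minimum fold of 1.2 and ORFs with a value in at least 1 column. It called 43 ORFs with each column centred on its median, 115 when that median was taken over the ORFs with both values (chosen after seeing the data) and 110 with columns also scaled. In each of these 3 settings it called 1 of the 25 genes, NOP1. The prior of the fit had 2.64 degrees of freedom without centring, against 10.6 and 17.1 in the 2 centred fits, and the cause was not tested.

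The count beyond 1.5-fold was 0 with replicate 1 kept as deposited and 2 of the 25 with either replicate alone. These were NOP1 and NHP2 in replicate 2 (against 6.54% of all ORFs with both values) and NOP1 and UTP13 in replicate 1 (against 7.99%). Of all 33 genes with a value in replicate 1, 6 were beyond 1.5-fold there (18.2%, against 9.15% of all ORFs), the others being RRP3, UTP15, FAL1 and UTP8. The median of the list kept its side throughout, between -0.27 and -0.041, as did the number of negative genes, between 14 and 23, a count added after seeing the data. With replicate 1 kept as deposited, signs changed for the medians of the Mpp10 group (0.0097) and the helicases (-0.049) and for the means of 10 of the 25 genes, NOP14 (-0.035), SNU13 (-0.024), UTP4 (0.16), UTP5 (-0.068), UTP13 (-0.49), IMP3 (0.0097), IMP4 (0.061), DBP8 (-0.049), UTP7 (-0.078) and ENP1 (0.015). The median of the other processome factors, -0.027, kept its side and moved to between -0.078 and -0.04 over the alternatives. SNU13 was also negative with centred (-0.011) and scaled (-0.011) columns. Leaving out each replicate gave -0.034 to 0.064 for the helicases, -0.021 to 0.027 for SNU13 and -0.26 to 0.10 for the other pathway genes. It gave -0.29 to 0.00043 for the H/ACA group and for CBF5, -0.26 to 0.12 for GAR1 and -0.27 to 0.15 for NOP58, with no test. The cause of these sign changes was not tested. No spot brightness was used, so the limit that signal over background sets is unknown.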

Other observations

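RRP3, the DEAD-box helicase with 2.20 in replicate 1, was singled out after its value was seen, and no test covers it. Its direct neighbour in the order of ORF names, SSZ1, a ribosome-associated Hsp70, had the opposite side in replicate 1 with -1.55 and -0.067 in replicate 2. DYS1, 3 places away, had -0.64 in replicate 1 and -0.24 in replicate 2. Of the 33 processome and snoRNP genes with a value in replicate 1, 5 had another ORF beyond 2-fold in replicate 1 within 3 places (15.2%), against 343 of 3705 among all ORFs (9.26%).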
